A study of Mus musculus with 12 samples.

Results

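Cdkn1a and Cdkn2b encode p21 and p15, inhibitors of the cyclin-dependent kinases that drive cells from G1 into S phase. The genes were taken by their annotation in the platform table, which gave 1 probe for each, or 2 of the 6774 named genes and 2 of the 9558 probes on the arrays. They were chosen from their log2 ratios at both calcium levels, so those ratios are given as a description, without a test.

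p21 belongs to the Cip/Kip family, which binds cyclin-CDK complexes and can also bind the replication clamp PCNA. p15 belongs to the INK4 family, which binds CDK4 and CDK6 and keeps cyclin D away from them. Cdkn1a is a classical target of p53, and the p53 relatives p63 and p73 can bind the same kind of DNA element. Cdkn2b is induced by TGF-beta through Smad proteins and is held down by Myc together with Miz1. In skin, p21 is known for the withdrawal of keratinocytes from the cell cycle as they leave the basal layer.

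The cells were primary skin keratinocytes of C57Bl/6NCr mice, all transduced with adenovirus. The virus carried either beta-galactosidase, the control, or deltaNp63alpha, the main p63 isoform of basal keratinocytes, which starts downstream of the N-terminal transactivation domain. RNA was taken 41 h after transduction. For the last 24 h the cells stood in 0.05 mM calcium (low) or 0.12 mM calcium (high), the latter a differentiation signal for keratinocytes. The labels used here give neither the mice's age nor a number of animals or cultures.

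Each of the 12 spotted cDNA arrays held the RNA of both viruses at 1 calcium level. Each level had 3 repeats of 2 arrays. The deltaNp63alpha RNA carried Cy5 on the forward array and Cy3 on the reversed one. Those arrays form a dye-swap pair, which is 1 replicate. Arrays are described in the labels as technical repeats, and the spread may be technical only. No array compared the calcium levels directly. An array holds a ratio and no level, so neither gene's abundance could be given and the keratinocyte label could not be checked against marker levels. A lower ratio in bulk RNA cannot tell less RNA per cell from fewer cells that express the gene.

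The arrays fell into a lower- and a higher-numbered set by the experiment numbers in their titles. The lower-numbered set (low calcium repeat 1, high calcium repeats 1 and 2) had values for 7869 to 9096 probes an array. The higher-numbered set (low calcium repeats 2 and 3, high calcium repeat 3) had 3366 to 6974. Across rows, which are not independent replicates, the forward and reversed arrays of a pair correlated as deposited at 0.120 to 0.255 in the lower-numbered set and at 0.525 to 0.712 in the other.

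Every sign below depends on how the ratio is read. The numerator of the deposited ratio is not stated. It was read here as Cy5, and the signs of the reversed arrays were therefore turned. On all 12 arrays the labels enter deltaNp63alpha as channel 2, and a ratio of channel 2 over channel 1 would need no turning. The direction used here, deltaNp63alpha over beta-galactosidase, has a thin basis. Cy5 is by custom the numerator, and the study's title speaks of negative regulation of maspin (Serpinb5), which reads lower under this choice. The direction is not settled, and the sign of Serpinb5 is no independent evidence for it. A ratio whose sign follows the dye would turn between the arrays of a pair, while the deposited values correlated positively there, as given above. The source of these correlations was not tested. The single Trp63 probe, the gene of the virus's insert, had pair values of -0.78 and 0.45 in low calcium and -0.59 and -0.51 in high calcium. It did not pass at either level (limma adjusted p = 0.919 and 0.446). Whether that probe detects the viral transcript is not known here, so the insert gives no check of the direction, and 3 of its 4 pair values were below 0.

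The stretches upstream of the annotated starts are shown because p63 and p53 share a binding element, and because both genes read lower in the same pairs in the direction used here. The sequences are the 250 bases before each start, from RefSeq on build GRCm38.p6, on the gene's own strand. Cdkn1a lies on chr17:29090979-29100722 and has 2 annotated starts in the table. The upstream one is preceded by chr17:29090729-29090978 and the other, inside the gene's span, by chr17:29093519-29093768. Cdkn2b lies on the minus strand at chr4:89306289-89311032, preceded by chr4:89311033-89311282. Capitals mark every match on either strand to the motifs searched. The GC box bound by Sp1 was searched as GGGCGG. The core of a TATA box was searched as TATAA. A Smad-type element was searched as CAGAC, and the p53-family decamer by its consensus.
Cdkn1a upstream start: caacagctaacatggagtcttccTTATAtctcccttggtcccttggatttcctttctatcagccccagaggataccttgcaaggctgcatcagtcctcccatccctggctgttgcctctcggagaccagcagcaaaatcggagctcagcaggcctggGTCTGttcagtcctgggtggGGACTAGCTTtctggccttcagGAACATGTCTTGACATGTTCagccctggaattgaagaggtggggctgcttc
Cdkn1a downstream start: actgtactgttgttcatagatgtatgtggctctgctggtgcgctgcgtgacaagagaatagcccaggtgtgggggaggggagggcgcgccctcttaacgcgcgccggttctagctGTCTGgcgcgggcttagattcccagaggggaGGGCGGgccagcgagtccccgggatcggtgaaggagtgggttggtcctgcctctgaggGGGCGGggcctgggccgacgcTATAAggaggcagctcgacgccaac
Cdkn2b: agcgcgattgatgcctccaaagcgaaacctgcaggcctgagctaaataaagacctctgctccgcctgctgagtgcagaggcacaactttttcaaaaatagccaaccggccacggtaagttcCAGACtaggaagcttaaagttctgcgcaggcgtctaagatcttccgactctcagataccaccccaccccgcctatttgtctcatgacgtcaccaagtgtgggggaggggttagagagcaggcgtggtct

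The window of the upstream Cdkn1a start held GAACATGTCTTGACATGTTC at chr17:29090928-29090947, beginning 51 bases before the start. It is 2 adjoining decamers with 1 mismatch to the p53-family consensus over its 20 bases. Such a site with at most 1 mismatch was present in 25 of 32851 windows of the same length in the table (0.0761%), and a single decamer in 7.13%. A single decamer also began 73 bases before that start, apart from the site. Before the downstream Cdkn1a start the window held GGGCGG at 104 and 46 bases and TATAA at 25 bases upstream. GGGCGG was present in 32.7% of all windows and TATAA in 22.8%. CAGAC was found once in each of the 3 windows and in 42.2% of all windows. A match is a run of letters and not a shown binding site, and the arrays do not say which start was used.

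Cdkn1a had a value on 10 of the 12 arrays and Cdkn2b on 6. As deposited, Cdkn1a in low calcium read -0.36 (repeat 1), 0.55 (repeat 2) and 0.21 (repeat 3) on the forward arrays. Its reversed arrays read 1.37 (repeat 1) and 1.74 (repeat 2). In high calcium its forward arrays read -0.57, -1.33 and 1.17, and its reversed arrays 1.51 and 1.75 for repeats 1 and 2. The reversed array of repeat 3 had no value at either level. All 4 reversed arrays thus read higher than any of the 6 forward arrays. The share of all rows that separate in this way was not counted.

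The forward arrays of Cdkn1a split by array set. The 3 of the lower-numbered set lay between -1.33 and -0.36, and the 3 of the higher-numbered set between 0.21 and 1.17. Each set held both calcium levels. The share of all rows whose forward arrays split in this way was not counted. The share of the array set in this gene's values was not tested apart from the values given here.

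Cdkn2b had no value on any array of the higher-numbered set. Its forward arrays, as deposited, read -1.73 in low calcium repeat 1 and -1.25 and -1.62 in high calcium repeats 1 and 2. Its reversed arrays read 0.99, 0.44 and 0.49 in the same order. All 3 forward arrays were below 0 and all 3 reversed arrays above it, so the sign followed the dye of the deltaNp63alpha RNA. How many of all rows do the same was not counted.

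**Figure D1:**
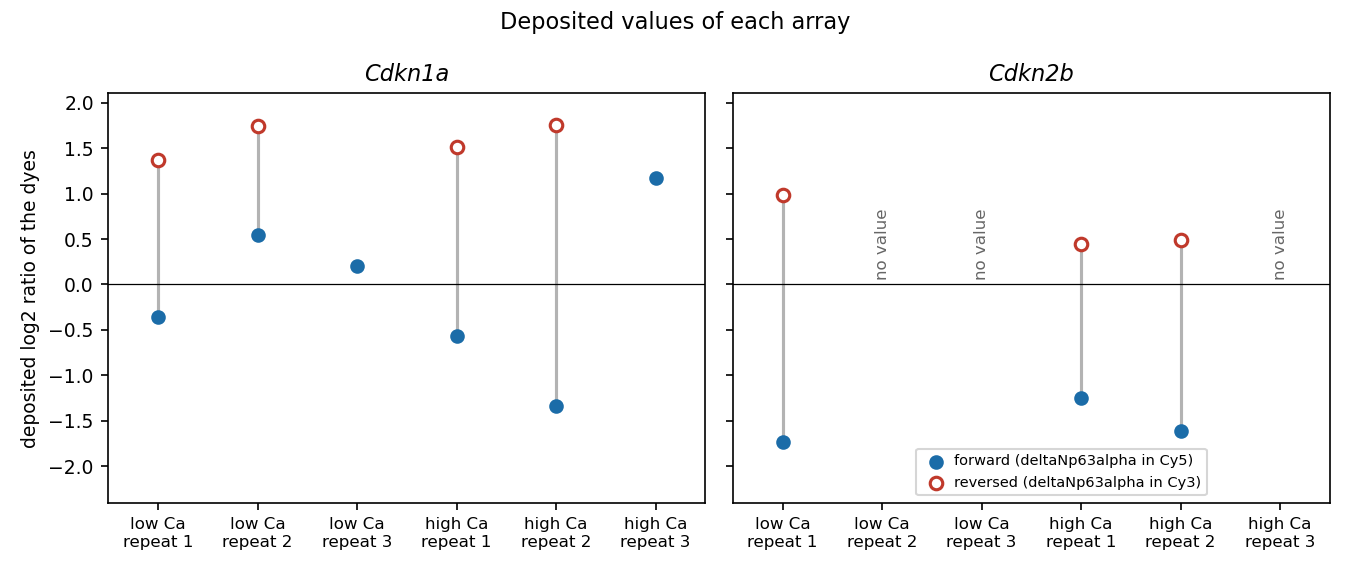
Deposited log2 ratio of the dyes (vertical axis) on each array for Cdkn1a and Cdkn2b, with filled points for forward arrays, open points for reversed arrays and a line joining the arrays of a pair. In every pair with 2 values the reversed point lies above the forward point; the forward points of Cdkn1a in the higher-numbered set (0.21 to 1.17) lie above 0.

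The value of a pair is the forward minus the reversed value, divided by 2, which removes a dye bias that is equal on both arrays. For Cdkn1a the pairs gave -0.87 and -0.60 in low calcium (repeats 1 and 2) and -1.04 and -1.54 in high calcium (repeats 1 and 2). All 4 pairs were below 0. The mean was -0.73 ± 0.19 (SD, n = 2 pairs) in low calcium, a 1.66-fold lower ratio with deltaNp63alpha. In high calcium it was -1.29 ± 0.36 (SD, n = 2 pairs), 2.45-fold lower. With the higher-numbered set left out, low calcium rests on repeat 1 alone at -0.87. The forward array of high calcium repeat 3, which has no pair value, read 1.17. The difference of high minus low calcium was -0.0518 with unpaired arrays kept as pair values and -0.0748 on reversed arrays alone.

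For Cdkn2b the pairs gave -1.36 in low calcium repeat 1 and -0.84 and -1.05 in high calcium repeats 1 and 2. All 3 were below 0. The high calcium mean was -0.95 ± 0.15 (SD, n = 2 pairs), 1.93-fold lower with deltaNp63alpha. The low calcium value, 2.56-fold lower, is 1 pair with no replicate.

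In the direction used here, both genes lay near the lower end of all rows with a value in the same pair. For Cdkn1a, 144 of 7893 rows were lower in low calcium repeat 1 and 94 of 4552 in repeat 2. In high calcium only 36 of 7185 rows were lower in repeat 1 and 20 of 8214 in repeat 2. For Cdkn2b the counts were 19 of 7893 in low calcium repeat 1, 97 of 7185 in high calcium repeat 1 and 125 of 8214 in high calcium repeat 2. These ranks describe the values that the genes were picked with, and they hold for that direction only. With the deposited signs kept, 94.5% and 98.0% of rows were lower than Cdkn1a in low calcium (repeats 1 and 2) and 96.8% and 72.7% in high calcium. For Cdkn2b it was 20.6% in low calcium and 15.6% and 14.9% in high calcium, so neither gene lay near the lower end.

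**Figure D2:**
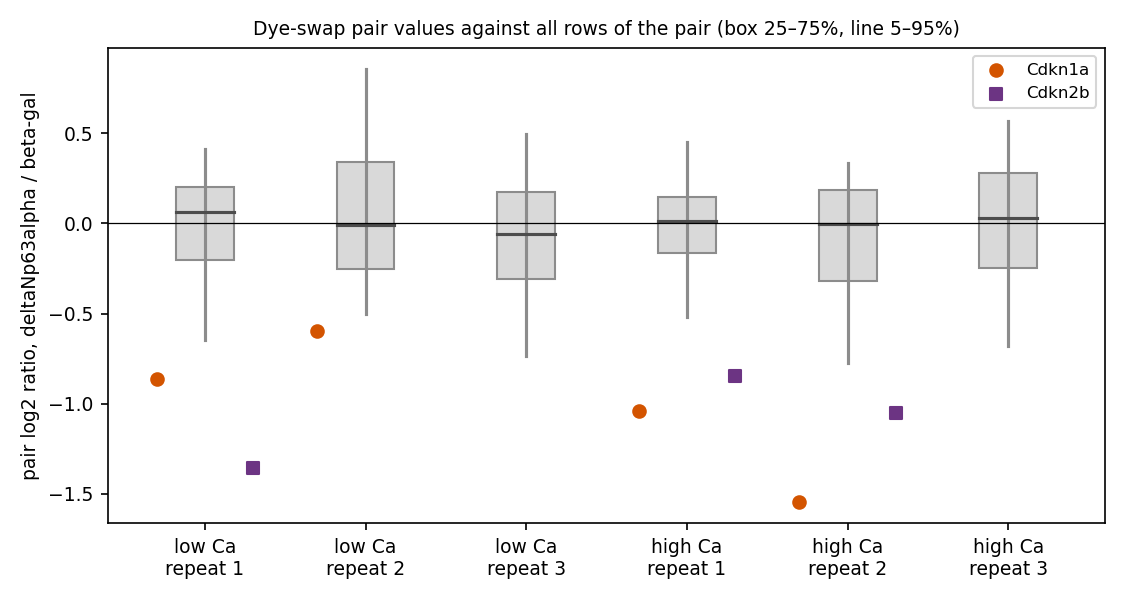
Dye-swap pair values (log2 ratio of deltaNp63alpha over beta-galactosidase, vertical axis) of Cdkn1a (circles) and Cdkn2b (squares) beside all rows of each pair, with boxes from the 25th to the 75th percentile and lines from the 5th to the 95th. With the reversed arrays turned, all 7 points lie below the 5th percentile of their pair, and with the deposited signs kept none would (72.7 to 98.0% of rows lower than Cdkn1a, 14.9 to 20.6% lower than Cdkn2b); low calcium repeat 3 and high calcium repeat 3 gave no pair value for either gene.

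In the direction used here the genes stood in opposite order at the calcium levels, and with the deposited signs kept Cdkn2b was below Cdkn1a in all 3 pairs that hold both. In low calcium repeat 1 the log2 ratio of Cdkn2b was below that of Cdkn1a by 0.49 (Cdkn2b minus Cdkn1a -0.49). In high calcium it was above it, by 0.19 in repeat 1 and 0.49 in repeat 2. The difference of high minus low calcium was -0.56 ± 0.28 (SE of the fit) for Cdkn1a and 0.41 ± 0.33 (SE of the fit) for Cdkn2b. The latter has a single low calcium pair. Within the lower-numbered set the difference for Cdkn1a was -0.43. Neither difference was tested, since it is made of the values that chose the genes.

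The arrays of a pair were unequal in opposite ways for the 2 genes. Cdkn1a was further from 0 on the reversed array in all 4 pairs, and in low calcium repeat 2 its arrays had the same deposited sign. Cdkn2b was further from 0 on the forward array in all 3 pairs. The mean of the 2 deposited values of a pair, the component that does not flip with the dye, was 0.51 and 1.14 for Cdkn1a in low calcium and 0.47 and 0.21 in high calcium. For Cdkn2b it was -0.37 in low calcium and -0.40 and -0.56 in high calcium.

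That component is also what a reading of the files without turning would report. A ratio with Cy3 as its numerator would instead reverse the sign of every pair value. Both genes would then lie near the upper end of all rows. With the deposited signs kept on every array, Cdkn1a was at 0.83 in low calcium and 0.34 in high calcium, above 0. Cdkn2b was at -0.37 and -0.48, below 0 as in the reading used here, though its forward and reversed arrays then opposed each other in sign in all 3 pairs. The arrays of Cdkn1a opposed each other under that reading in 3 of 4 pairs.

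The values of Cdkn1a on single arrays also bear on its size. Forward arrays alone gave 0.13 in low calcium and -0.24 in high calcium, and reversed arrays alone -1.56 and -1.63. With the unpaired forward array of repeat 3 kept as a pair value, it was -0.42 in low calcium and -0.47 in high calcium. For Cdkn2b, forward arrays gave -1.73 and -1.43 and reversed arrays -0.99 and -0.47.

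The genes whose array values ran most like each member were found by Pearson correlation over turned values on all arrays where the member had a value. The arrays share RNA, dyes and array sets, so these correlations are descriptions. After turning, the component that does not flip with the dye has opposite signs on forward and reversed arrays. That component therefore enters the correlations over turned values, and its part was not tested. For Cdkn1a, over 10 arrays, they were Gm7308 (0.971), Pcbp1 (0.960), Ybx3 (0.957), Myl9 (0.956) and Capn2 (0.954). The median over 1835 rows was 0.191 and the 95th percentile 0.868. The mean turned values of these 5 genes lay between -0.29 and 0.15. For Cdkn2b, over 6 arrays, they were Elavl2 (0.997), Nceh1 (0.995), Slc11a2 (0.993), 2310076G13Rik (0.990) and Opa3 (0.990), beside a median of -0.259 and a 95th percentile of 0.882 over 6698 rows. With the deposited signs in place of the turned ones, a choice made after seeing the data, the nearest to Cdkn1a were Thbs1 (0.953), Itgb1 (0.927), Mff (0.922), Bhlhe40 (0.922) and Tnc (0.921). For Cdkn2b they were then Nfu1 (0.994), Dag1 (0.993), Tnfrsf4 (0.993), Tmem9b (0.992) and Pigp (0.991). Over the 6 arrays with both members, Cdkn1a and Cdkn2b correlated with each other at -0.737 on turned values and at 0.936 on deposited values.

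Of the other 5 CDK inhibitors, Cdkn1c and Cdkn2d were on the arrays. Cdkn1c encodes p57, the third Cip/Kip protein. Its pairs gave -0.11 and 0.37 in low calcium and 0.09 and -0.53 in high calcium, on both sides of 0 at each level. The mean was 0.13 in low calcium (limma adjusted p = 0.925) and -0.22 in high calcium (limma adjusted p = 0.774). Cdkn2d encodes the INK4 protein p19. Its pairs gave -0.24 in low calcium and -0.30 and -0.77 in high calcium, with a high calcium mean of -0.53 ± 0.20 (SE, n = 2 pairs, limma adjusted p = 0.289). Without the higher-numbered array set, a fit chosen after seeing the data that leaves only repeat 1 in low calcium, Cdkn2d was at the same value. On reversed arrays alone its high calcium value was 0.0628. As deposited, both of its arrays read below 0 in low calcium repeat 1 (-0.80 forward, -0.31 reversed). The same held in high calcium repeat 2 (-1.97 forward, -0.44 reversed).

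**Figure D3:**
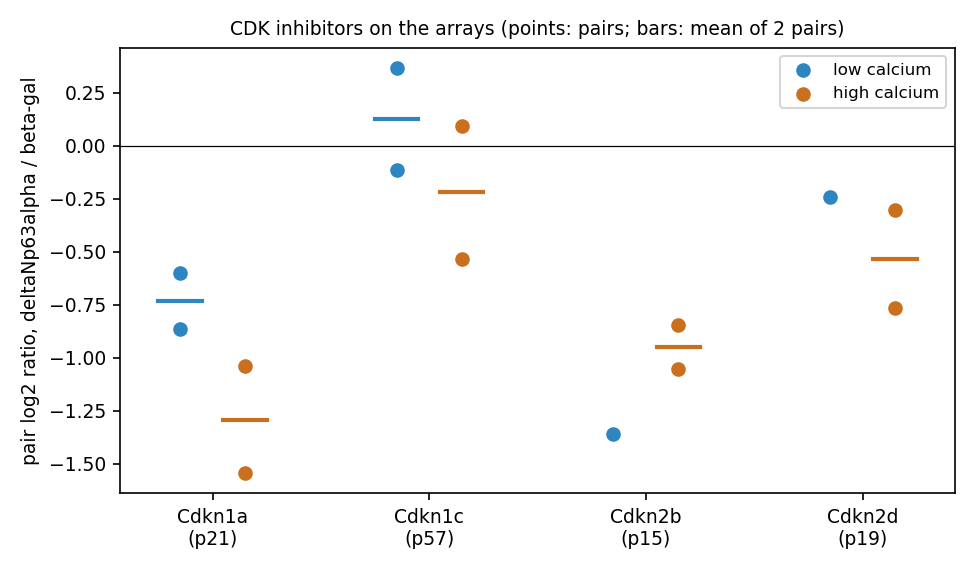
Dye-swap pair values (log2 ratio of deltaNp63alpha over beta-galactosidase, vertical axis) of the 4 CDK inhibitors on the arrays, in low (blue) and high (orange) calcium, with bars for the mean of 2 pairs. All pairs of Cdkn1a, Cdkn2b and Cdkn2d lie below 0, and those of Cdkn1c on both sides of it. In low calcium repeat 1 and high calcium repeat 2 both arrays of Cdkn2d read below 0 as deposited.

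The genes around the inhibitors were taken from lists that leave out Cdkn1a and Cdkn2b, written with earlier results of these data known. They were tested in 1 fit over all rows with at least 2 pairs at a level. That fit called 0.409% of 4646 rows in low calcium and 1.39% of 7263 rows in high calcium at a limma adjusted p under 0.05. By direction, 0.387% of rows were called lower and 0.0215% higher in low calcium, and 0.84% lower and 0.551% higher in high calcium. At an unadjusted p under 0.05 there were 439 of the 4646 rows in low calcium and 842 of the 7263 rows in high calcium (limma). The list counts at that threshold below are to be read beside these totals. The median of all rows tested was 0.02 in low calcium and 0.01 in high calcium.

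Of the p53 family and the targets its members share with Cdkn1a, 2 of 14 tested genes fell in low calcium and 2 of 20 in high calcium, and none rose. The unadjusted p was under 0.05 for 5 and 7 genes (limma). The list's median was -0.22 in low calcium and -0.14 in high calcium, with 11 of 14 and 15 of 20 genes below 0. The genes that fell are in the list as targets: Thbs1, which encodes thrombospondin, and Serpinb5, which encodes maspin. The lower reading of Serpinb5 was among the grounds for the direction used here, so its sign is no result about the list. Thbs1 was at -1.10 ± 0.20 (SE, n = 3 pairs) in low calcium (limma adjusted p = 0.0450) and -1.39 ± 0.25 (SE, n = 2 pairs) in high calcium (limma adjusted p = 0.0214). Serpinb5 was at -0.80 ± 0.16 (SE, n = 3 pairs, limma adjusted p = 0.04998) and -0.89 ± 0.19 (SE, n = 2 pairs, limma adjusted p = 0.0388). The low calcium call of Serpinb5 was lost without low calcium repeat 1 or 3 (limma adjusted p = 0.210 and 0.160). That of Thbs1 was lost without any 1 of the low calcium repeats (limma adjusted p = 0.0520 to 0.205). With the array set as a block the high calcium calls of both genes were lost (limma adjusted p = 0.184 for Serpinb5 and 0.112 for Thbs1), and with the replicate block that of Serpinb5 (limma adjusted p = 0.0511). Trp73, the p53 relative, was at 0.15 in low calcium and 0.26 in high calcium and did not pass (limma adjusted p = 0.825 and 0.667).

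Of the inputs to Cdkn2b, 0 of 14 tested genes of TGF-beta signalling, Myc and Miz1 passed in low calcium and 0 of 16 in high calcium (limma; 2 at each level at an unadjusted p under 0.05). The medians were -0.06 and -0.09. Myc, a repressor of Cdkn2b, had pairs at -0.38, 0.47 and 0.03 in low calcium and at -0.37, -0.65 and -0.40 in high calcium. Its high calcium mean of -0.47 did not pass (limma adjusted p = 0.230). Zbtb17, which encodes Miz1, was at 0.03 and -0.11 (limma adjusted p = 0.979 and 0.819).

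Downstream of both inhibitors, 0 of 7 tested cyclins, CDKs and their activating phosphatases passed in low calcium and 0 of 13 in high calcium (limma; 2 and 1 at an unadjusted p under 0.05). Their log2 ratios spanned -0.60 to 0.64 in low calcium, and -0.62 to 0.23 in high. Of the retinoblastoma and E2F family, 0 of 2 and 0 of 5 passed (limma; 0 and 0 at an unadjusted p under 0.05).

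S phase genes that E2F drives gave 0 of 10 calls in low calcium and 0 of 17 in high calcium (limma; 1 and 2 at an unadjusted p under 0.05). In high calcium 14 of these 17 were above 0, with a median of 0.18 and a range from -0.64 to 0.77. In low calcium 7 of 10 were above 0, with a median of 0.06. The medians of all rows tested were 0.02 in low and 0.01 in high calcium.

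Among genes of keratinocyte growth arrest and differentiation, 1 of 10 fell in low calcium and 5 of 12 in high calcium, and none rose. The unadjusted p was under 0.05 for 4 and 7 genes (limma). The list's median was 0.02 in low calcium and -0.36 in high calcium, with 4 of 10 and 9 of 12 genes below 0. Sprr1a, whose product is crosslinked into the cornified envelope, fell at both levels. It was at -2.15 ± 0.21 (SE, n = 3 pairs, limma adjusted p = 0.000419) and at -1.63 ± 0.26 (SE, n = 2 pairs, limma adjusted p = 0.0102). In high calcium Flg, Klk7, Klk5 and Krt10, genes of filaggrin, of proteases of corneocyte shedding and of a suprabasal keratin, lay between -1.93 and -1.57. Their limma adjusted p was 0.0351, 0.00861, 0.0115 and 0.00821 in that order. Flg had 3 pairs. Klk7, Klk5 and Krt10 had 2 each, repeats 1 and 2 of the lower-numbered set. Their calls could therefore not be tested with either of these repeats left out. The call of Flg was lost without high calcium repeat 3 (-1.07, limma adjusted p = 0.0993) and without low calcium repeat 2 (limma adjusted p = 0.0512).

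**Figure D4:**
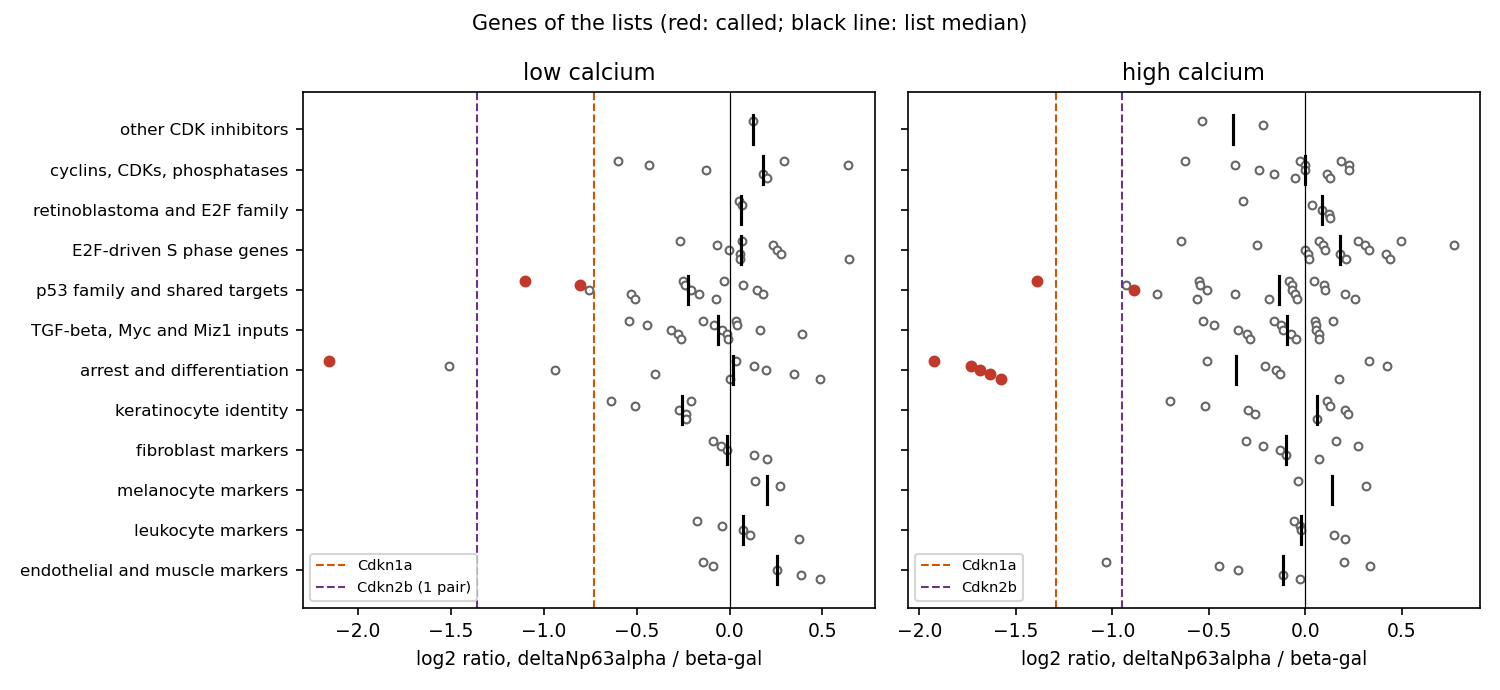
Fitted log2 ratios of deltaNp63alpha over beta-galactosidase (horizontal axes) for the tested genes of each list in low and high calcium, with called genes in red, list medians as black lines and dashed lines at Cdkn1a and Cdkn2b. Called genes appear in the lists of p53 targets (2 at each level) and of arrest and differentiation (1 in low and 5 in high calcium).

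No marker of other cells that skin cultures can hold passed the test. In low calcium 5 fibroblast, 2 melanocyte, 5 leukocyte and 5 endothelial or muscle markers were tested, and in high calcium 7, 2, 5 and 7. At an unadjusted p under 0.05 there were 2 in low and 1 in high calcium, all in the endothelial and muscle list (limma). The smallest limma adjusted p, 0.0509, was that of Acta2, the actin of smooth muscle and of myofibroblasts, in high calcium. It was at -1.04 there, with pairs of -0.66 and -1.42, a size like that of Cdkn1a (-1.04 and -1.54) and Cdkn2b (-0.84 and -1.05) in the same pairs. The 7 endothelial and muscle markers ran from -1.04 to 0.33 in high calcium, with a median of -0.12. Among them, the other muscle genes were at -0.45 (Des), -0.115 (Myh11) and -0.03 (Tagln), and none of these passed. Other muscle actins, named after their values were seen, were at -0.92 (Actc1), -1.03 (Actg2) and -0.76 (Acta1), and none of them passed (limma adjusted p = 0.0902, 0.162 and 0.169). The part of such cells in the values of Cdkn1a and Cdkn2b was not tested. Of the keratinocyte identity genes 0 of 6 passed in low calcium and 0 of 9 in high calcium (limma; 2 at each level at an unadjusted p under 0.05). Their medians were -0.25 and 0.06, with 6 of 6 genes below 0 in low calcium and 4 of 9 in high calcium. Over all rows, no row passed for the difference between calcium levels (limma; 0 of 4209, 107 at an unadjusted p under 0.05).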

How the data were processed

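The deposited value table holds 1 log ratio a probe and array, from -7.88 to 4.60, treated as log2 since no base is named. Per the labels' protocols, TRIzol RNA was labelled with a Genisphere sub-Micro kit. How the authors scanned, background-corrected, normalised and filtered the spots is not given in the sources available. Deposited array medians lay between -0.0005 and 0.0005. Of 9558 probes, 7457 had 1 gene symbol, 481 several and 1620 had no entry in the platform table and stay unnamed; 7368 symbols were updated by gene ID (GRCm38.p6). Probes of a gene were averaged, giving 8875 rows.

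Each array was centred on its median. Where 1 array of a dye-swap pair lacked a value, the pair was left out for that row. The 3 + 3 pairs were fitted together by lmFit and eBayes of limma 3.58.1 in R 4.3.3 (median of 2 residual and 9.55 prior degrees of freedom), after tests on simulated data. A row was tested where at least 2 pairs of a level had a value, and for the difference 2 at each level, with Benjamini-Hochberg adjustment over all rows tested. The number of arrays limits the precision.

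The members and lists were chosen with earlier results of these data known. Named by rule were the CDK inhibitors, Trp63, Trp73, Myc, Zbtb17, called list genes and the 5 named genes most correlated with each member. Itgb1, Mff, Bhlhe40, Tnc and the others nearest with the deposited signs were named after their values were seen.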

Additional observations from a re-analysis of the deposited data

Results flagged for a closer look

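The forward arrays of Cdkn1a moved in opposite directions in the array sets: all 3 of the lower-numbered set were below 0 and all 3 of the higher-numbered set above 0. The mean of the higher-numbered set was 1.39 above that of the lower-numbered set, at 0.64 against -0.75 (n = 3 arrays each). The difference was not tested, and the share of all rows that split in the same way was not counted. The reversed arrays read 1.37 to 1.75 in the lower-numbered set and 1.74 on the single array of the other. The higher-numbered arrays also had fewer values (3366 to 6974 against 7869 to 9096) and a wider spread over probes (SD 0.763 to 1.24 against 0.504 to 0.711). Their part in the difference was not tested.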

How the results depend on the processing

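Cdkn1a reversed with the deposited signs kept (0.83 low, 0.34 high) and, in low calcium, on forward arrays alone (0.13). It moved on reversed arrays (-1.56 low, difference -0.0748), on forward arrays in high calcium (-0.24), with single arrays kept (-0.42 low, -0.47 high, difference -0.0518) and with arrays on the same spread (-1.84 high, difference -1.15). Cdkn2b moved with the deposited signs (-0.37 low, -0.48 high; its difference reversed to -0.11), on forward (-1.73, -1.43) and reversed arrays (-0.99, -0.47), on the same spread (-1.64, -1.22) and, in low calcium, with the replicate block (-1.57). With 1 repeat left out, Cdkn1a ranged from -0.87 to -0.60 in low and -1.54 to -1.04 in high calcium (difference -0.81 to -0.31). Cdkn2b ranged from -1.05 to -0.84 in high calcium (difference 0.30 to 0.51), and without low calcium repeat 1 it had no low calcium value. The cause was not tested.

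The counts of called rows moved widely. From 19 in low and 101 in high calcium they went to 763 and 0 with the deposited signs, 33 and 0 on forward arrays, 330 and 1 on reversed arrays, 0 and 0 with single arrays kept or a trended and robust variance, 0 and 1 on the same spread and 44 and 134 with the array set block. Arrays as replicates gave 57 and 3 pairs per level 33 in high calcium, the latter with fewer rows tested. Leaving out 1 repeat gave 6 to 51, 33 to 151 and, for the difference, 0 to 1. Leaving out the higher-numbered array set, chosen after seeing the data, gave 598 in high calcium and no test in low calcium. The difference gave 1 with the array set block.

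The called list genes, 3 in low and 7 in high calcium, became 12 and 0 with the deposited signs, 1 and 0 on forward arrays, 12 and 0 on reversed arrays and 0 and 0 with single arrays kept, the same spread or the trended variance. The array set block ended the high calcium calls of Serpinb5 (limma adjusted p = 0.184) and Thbs1 (limma adjusted p = 0.112). Arrays as replicates gave 1 in low calcium, 3 pairs per level 1 in high calcium, 1 repeat left out 1 to 5 and 1 to 9, and the lower-numbered set alone 21 in high calcium.

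Repeat numbers did not pair the calcium levels: same-numbered pairs deviated together at r = -0.0262, -0.108 and 0.204 over 1381 rows. Only repeat 3 correlated best with its own number. The replicate block gave 49 low calcium calls, 83 high calcium calls and 2 for the difference, with 5 and 4 list genes.

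With the deposited signs, Serpinb5 (0.70), Sprr1a (0.91) and Thbs1 (0.86) reversed in low calcium, and Flg (0.29), Klk5 (0.23), Klk7 (0.19), Serpinb5 (0.0186), Sprr1a (0.32) and Thbs1 (0.14) in high calcium. Cdkn1c reversed in low calcium with those signs (-0.85), on forward arrays (-0.72) and on the same spread (-0.0564). In high calcium it reversed on reversed arrays (0.84), with single arrays kept (0.49), arrays as replicates (0.0245) and the array set block (0.0194), and Cdkn2d on reversed arrays (0.0628).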
